A study of Haematococcus lacustris with 7 samples.

Results

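Protein serine/threonine kinases transfer a phosphate group from ATP to serine or threonine residues of other proteins, and protein phosphatases take it off again. Kinases often work in relays. A MAP kinase kinase kinase switches on a MAP kinase kinase, which switches on a MAP kinase, and in plants such relays carry stress and hormone signals. Cyclin-dependent kinases drive the cell cycle or act on RNA polymerase II, calmodulin-dependent kinases respond to calcium, and the target of rapamycin (TOR) kinase ties growth to nutrients. The sequences described here are those of the *Haematococcus pluvialis* transcriptome that carry a Gene Ontology (GO) term of this group. A sequence was taken in where the name of any of its GO terms held protein serine/threonine kinase activity, MAP kinase, cyclin-dependent protein kinase or calmodulin-dependent protein kinase. This gave 199 of 6812 annotated sequences (2.92%), in 174 of 6164 Trinity components, which are the groups of related contigs that the assembler formed.

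*H. pluvialis* is a unicellular green alga that accumulates the red carotenoid astaxanthin under stress. The study compared an untreated culture (N) with cultures given 25 mg/L of either jasmonic acid (JA) or salicylic acid (SA) for 1, 6 or 24 h (JA1, JA6, JA24, SA1, SA6 and SA24), all divided from one culture of a single strain. This gave 7 libraries with 1 library per condition. The values used here are the GO assignments of the assembled sequences, in which 0 of 4 columns hold a number per library, so no kinase can be placed under JA, SA or control, and no depth or spread between replicates can be given. A term on a sequence records similarity to a reference protein with that term. It is not a measurement of kinase activity in the alga, and shares are set beside those of all annotated sequences as a description, with no test.

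Most kinase sequences were listed under the general term, and the named classes were led by cyclin-dependent kinases and MAP kinases. The term protein serine/threonine kinase activity itself was listed for 137 sequences (68.8% of the 199) in 124 components. Cyclin-dependent protein kinase activity was listed for 27 sequences (13.6%) in 21 components and MAP kinase activity for 19 (9.55%) in 17. The upper tier of the MAP kinase relay, MAP kinase kinase kinase activity, had 7 sequences (3.52%) in 3 components, whereas 0 sequences carried a term for the middle tier, MAP kinase kinase. The general term does not say whether a sequence belongs to a tier of the relay, so this 0 is a count of terms only. Calmodulin-dependent protein kinase activity was listed for 5 sequences (2.51%) in 5 components. A single sequence carried receptor signaling protein serine/threonine kinase activity. A further 3 sequences entered only through a term for the regulation of cyclin-dependent kinases and had no kinase activity term of the rule. The classes did not overlap, with 0 sequences in more than 1 of them, so that no member of a named class also listed the general term.

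**Figure D1:**
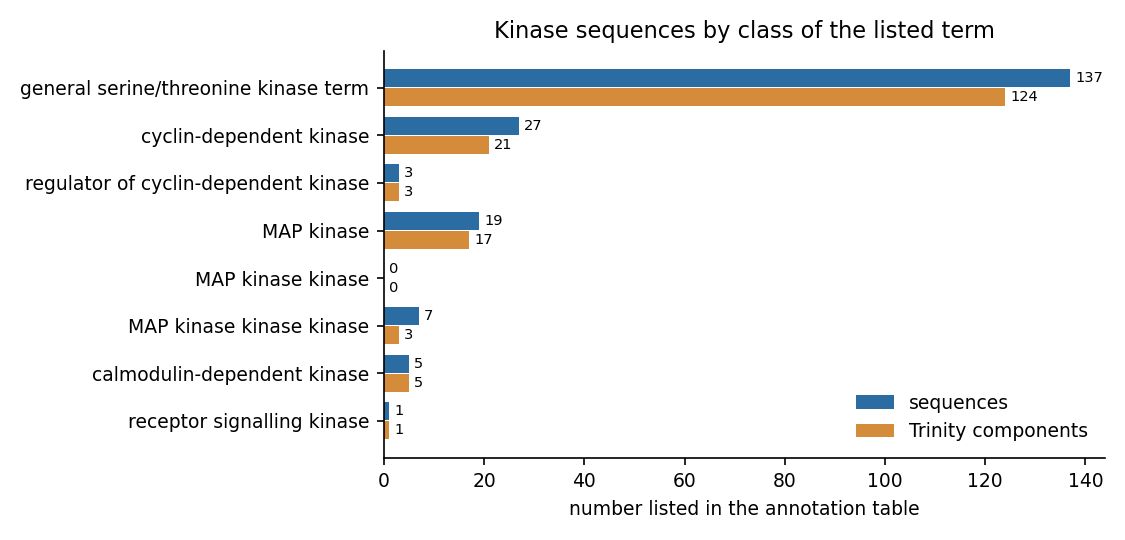
Bars show the number of kinase sequences (blue) and of the Trinity components that hold them (orange) for each class of GO term; the horizontal axis is a count from 0. The general term holds 137 of the 199 sequences, the cyclin-dependent class 27 and the MAP kinase class 19, and the MAP kinase kinase class is empty.

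Nearly every member carried the terms that describe the kinase reaction. ATP binding was listed for 195 of the 199 sequences (98.0%), beside 1917 of all 6812 (28.1%). The process term protein amino acid phosphorylation was listed for 179. Of the 20 members without it, 13 listed protein amino acid autophosphorylation, the attachment of phosphate by a kinase to itself, in its place, and 0 listed both. The remaining 7 had neither term. They were the 3 regulators of cyclin-dependent kinases and 4 members with the general term. The same regulators made up 3 of the 4 members without ATP binding, and the other was comp1287043_c0_seq1_1, which listed only the general term and cytosol. For 28 members nothing was listed beyond ATP binding, protein amino acid phosphorylation and the kinase term, and 10 of these were MAP kinases.

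The members differed widely in how much was listed for them. A kinase sequence had a median of 6 terms (quartiles 4 and 9, range 2 to 39), compared with a median of 5 (quartiles 4 and 7) over all annotated sequences. MAP kinases had a median of 3 terms and calmodulin-dependent kinases a median of 9, the latter over only 5 sequences. The 199 members used 110 distinct sets of terms, of which 77 occurred on 1 sequence each. Molecular function terms were listed for all 199, process terms for 197 and location terms for 110 (55.3%). Among all annotated sequences, location terms were listed for 83.6%. A location was listed for 81 of 137 members with the general term, 14 of 27 cyclin-dependent kinases and 7 of 19 MAP kinases. All 5 calmodulin-dependent kinases had one, and none of the 7 MAP kinase kinase kinases did.

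Of the 27 cyclin-dependent kinases, 9 had the term for RNA polymerase II without a cell cycle term, 4 a cell cycle term without it, 5 both and 9 neither. RNA polymerase II carboxy-terminal domain kinase activity, the phosphorylation of the polymerase tail that accompanies transcription, was listed for 14 of the 27 and for no other sequence in the table. For 8 of the 14, in 5 components, it was the only term beyond the kinase activity, ATP binding and phosphorylation; among them were comp55864_c0_seq3_25, comp57789_c0_seq1_18 and comp59282_c0_seq1_30. It was joined by cell division and mitosis in 3 sequences (comp33750_c0_seq1_13, comp558338_c0_seq1_7 and comp830319_c0_seq1_4), and by nucleus, cell differentiation and regulation of cell cycle in 2 (comp64432_c0_seq1_24 and comp65192_c0_seq2_90). Without the polymerase term, the 3 sequences of comp57149_c0 listed cell cycle, cell division and nucleus, and 3 others, among them comp62107_c1_seq1_48, listed cytoplasm, protein binding and signal transduction. Both sequences of comp64149_c0 listed nucleus and autophosphorylation. The widest annotation was that of comp1450741_c0_seq1_4, with 15 terms that included the holoenzyme complex, histone kinase activity and condensed chromosome.

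Of the 3 regulators, comp1301529_c0_seq1_6 listed cyclin-dependent protein kinase regulator activity, cell cycle and cell division and nothing else, the kind of terms that a cyclin carries. The other 2 shared regulation of cyclin-dependent protein kinase activity and the perinuclear region of cytoplasm. Beyond these, comp828679_c0_seq1_2, with 13 terms, listed GTPase activity, nucleolus, ribosome biogenesis and protein stabilization among others, and comp1423817_c0_seq1_3, with 4 terms, listed protein modification process and a ligase activity. Neither of this pair would have been taken in by a molecular function term, since both matched only on a process term.

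MAP kinases fell into a sparsely annotated majority and a few sequences with long lists. Of the 19, 10 sequences in 8 components listed MAP kinase activity, ATP binding and protein amino acid phosphorylation alone; among them were comp52897_c0_seq1_5, comp55786_c0_seq1_29 and both sequences of comp60417_c0 and of comp63252_c2. An identical set of 14 terms was shared by 4 sequences of 4 components (comp57572_c0_seq1_11, comp479901_c0_seq1_11, comp599284_c0_seq1_3 and comp851450_c0_seq1_5). It held chemotaxis, cAMP-mediated signaling, activation of adenylate cyclase activity and aggregation involved in sorocarp development, a fruiting stage of the social amoeba *Dictyostelium*, together with mitosis, cytosol and nucleus. The sequence comp790304_c0_seq1_5 carried 10 terms, among them cell cycle arrest in response to pheromone and regulation of conjugation with cellular fusion by signal transduction, which describe a fungal mating relay, and spindle pole body.

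Of all 199 members, the MAP kinase comp53936_c0_seq1_7 was the single one listed with both hormones used in the study. Its 13 terms included 1 for the JA pathway within JA- and ethylene-dependent systemic resistance and 1 for the SA pathway within systemic acquired resistance. It also listed response to abscisic acid stimulus, hyperosmotic response, hypotonic salinity response, response to cold and response to fungus, with nucleus and cytoplasm as locations. These are terms carried over from reference proteins, and its transcript level under JA or SA is not analysed here.

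The MAP kinase kinase kinases, which open the relay, carried only a pair of term sets. Cytokinesis was listed for 4 sequences, the 3 of comp65534_c0 and comp64559_c0_seq19_16. Flower development and response to oxidative stress were listed for the other 3, comp63879_c0_seq1_36, comp64559_c0_seq4_21 and comp64559_c0_seq8_21. The component comp64559_c0 thus held sequences of both sets. As the 7 sequences came from 3 components, the class fell from 7 to 3 when each component was counted once.

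Calcium entered the kinase annotation through terms for calmodulin binding and for calcium ion binding. Calmodulin binding was listed for 6 members (3.02%, beside 0.573% of all annotated sequences), among them all 5 calmodulin-dependent kinases. Calcium ion binding was listed for 11 members (5.53%, beside 1.23% of all), each with the general term, in 8 components. Plants and green algae have calcium-dependent kinases that bind calcium through a domain of their own, but the terms do not say to which family a sequence belongs. Only comp1144681_c0_seq1_5 listed both binding terms. Among its 28 terms were several for muscle, such as sarcomere organization and structural constituent of muscle, and others for cytosol, condensed nuclear chromosome and protein tyrosine kinase activity. Among the others, the 3 sequences of comp61434_c0 listed membrane and protein binding, both sequences of comp63655_c0 listed plasma membrane and regulation of pollen tube growth, and comp56530_c0_seq1_12 listed abscisic acid mediated signaling pathway, regulation of anion channel activity and vacuole. Of the calmodulin-dependent class, comp623126_c0_seq1_7 and comp1651330_c0_seq1_5 listed the calcium- and calmodulin-dependent protein kinase complex, and comp1188311_c0_seq1_1 listed myosin light chain kinase activity, cytokinesis and regulation of chemotaxis.

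Apart from phosphorylation, the processes listed most often with the kinases were signalling and the cell cycle. Terms with a word for signalling were listed for 61 members (30.7%), beside 4.99% of all annotated sequences. They were led by signal transduction with 17 members, Wnt receptor signaling pathway with 9, and abscisic acid mediated signaling pathway and protein kinase cascade with 6 each. Cell cycle terms were listed for 37 members (18.6%), beside 4.58% of all. The leading ones were cell division with 18 members, mitosis with 13, cell cycle with 10 and cytokinesis with 7, and each of the 13 with mitosis also listed cell division. By class, cell cycle terms were listed for 15 of 137 members with the general term, 9 of 27 cyclin-dependent kinases, 7 of 19 MAP kinases and 4 of 7 MAP kinase kinase kinases. Terms for transcription, RNA and translation were listed for 17 members (8.54%, beside 24.6% of all), metabolism for 11 (5.53%, beside 21.9%) and transport for 6 (3.02%, beside 15.0%).

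**Figure D2:**
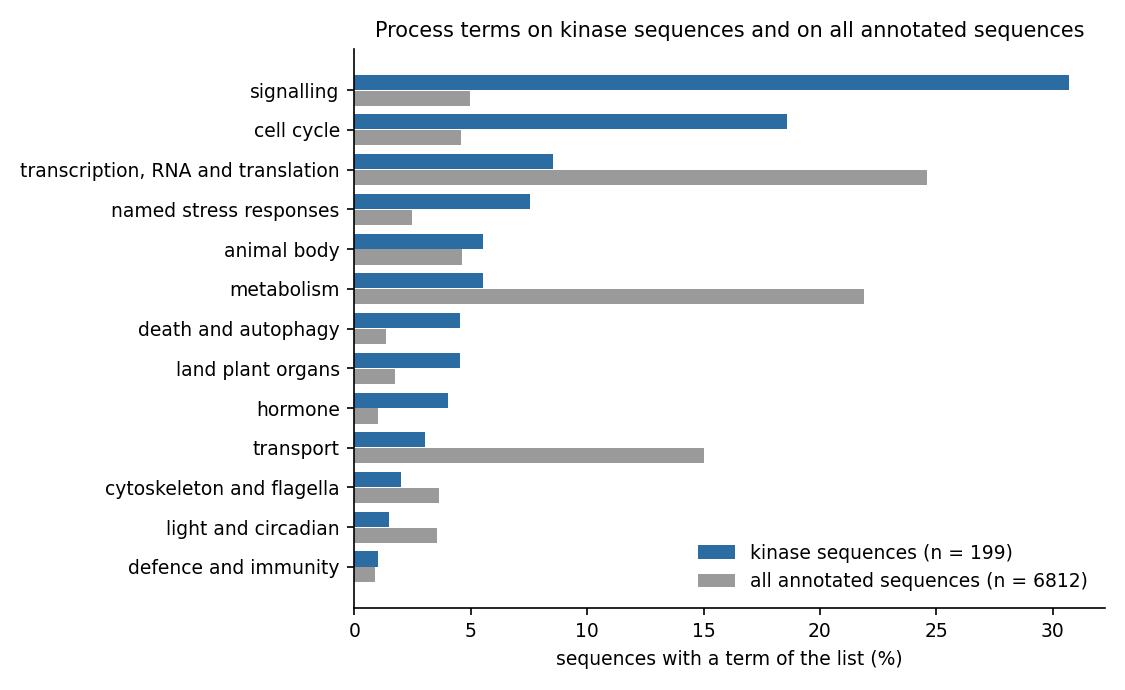
Horizontal bars give the percentage of the 199 kinase sequences (blue) and of all 6812 annotated sequences (grey) with a process term of each word list; phosphorylation is left out, and a sequence can be in several lists. Signalling (30.7%) and cell cycle (18.6%) are the longest blue bars, while transcription, RNA and translation is the longest grey bar (24.6%).

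Stress and hormone terms were listed for few members, and those for hormones were nearly all for abscisic acid. A response to a named stress was listed for 15 members (7.54%, beside 2.47% of all annotated sequences), with 5 for osmotic stress, 4 for salt stress, 3 for oxidative stress and 2 for cold. Adding response to stress, hyperosmotic, DNA damage and similar terms raised this to 27 members (13.6%, beside 4.76% of all). Hormone terms were listed for 8 members (4.02%, beside 1.03% of all). Of these, 7 named abscisic acid, the hormone of drought and salt responses in land plants, 2 ethylene, 1 gibberellin, and 1 both JA and SA. The pathway term for abscisic acid was joined by response to osmotic stress and no location in 4 sequences (comp45423_c0_seq1_9, comp58642_c0_seq4_13, comp58976_c0_seq3_27 and comp60429_c0_seq1_12). The second sequence of comp58976_c0 listed only the osmotic term, and the second of comp58642_c0 listed response to salt stress and nucleus instead.

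Some single members carried both hormone and nutrient terms. The sequence comp64783_c0_seq1_48, with 16 terms, listed the abscisic acid pathway together with sugar mediated signaling pathway, detection of nutrient, nitrate assimilation, fatty acid biosynthetic process and senescence. The sequence comp62968_c3_seq2_12 listed ethylene mediated signaling pathway and its negative regulation, gibberellin biosynthetic process, response to sucrose stimulus and the endoplasmic reticulum membrane. In *Arabidopsis*, a kinase at the endoplasmic reticulum holds ethylene signalling off until the hormone is present.

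TOR signalling and blue light reception were each listed for a few members of the general class. TOR terms, a list added after the term names were seen, were listed for 7 members in 6 components, out of 11 sequences in the whole table. Of these members, 6 listed the TORC2 complex, and 4 of the 6 also listed TORC1. Both sequences of comp63207_c1 listed TORC1, TORC2 and the protein kinase CK2 complex with nucleolus and cytosol. The members with the most terms of all also belonged here, comp812500_c0_seq1_1 with 39 terms and comp1325464_c0_seq1_1 with 36, and both listed negative regulation of macroautophagy, negative regulation of cell size and locations from dendrite to mitochondrial outer membrane. Blue light photoreceptor activity was listed for 2 sequences in the table, comp487861_c0_seq1_17 and comp591623_c0_seq1_3, and both were members. They shared an identical set of 16 terms, including FMN binding, phototropism, chloroplast relocation, stomatal movement and plasma membrane. In plants and green algae the blue light receptors called phototropins are kinases that bind FMN.

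Terms for animal bodies and for chemotaxis or the development of social amoebae were listed for some members. Terms for animal bodies were listed for 11 members (5.53%, beside 4.62% of all annotated sequences) and terms for land plant organs for 9 (4.52%, beside 1.75%). Chemotaxis or sorocarp terms were listed for 23 members (11.6%, beside 1.23% of all), of which 16 had the general term and 5 were MAP kinases. The list of these terms was added after the term names were seen. The term chemotaxis itself, which is not particular to social amoebae, was listed for 15 members. Wnt signalling, also a list added after the term names were seen, was listed for 9 members out of 12 sequences in the table. Among these 9 were all 5 sequences with tau-protein kinase activity, the phosphorylation of the protein tau. A single receptor signalling kinase, comp1366831_c0_seq1_2, listed 15 terms, among them apoptosis, negative regulation of organ growth and R8 cell fate specification, a step of insect eye development.

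Where a location was given, it was mostly the cytoplasm or the nucleus. Any location was listed for only 55.3% of the members, beside 83.6% of all annotated sequences. The shares below are of all 199 members and all 6812 annotated sequences, not of those with a location alone. The cytoplasm list was met by 44 members (22.1%, beside 18.6% of all annotated sequences) and the nucleus list by 42 (21.1%, beside 18.7%), with 12 in both. The cytosol was listed for 18 members (9.05%, beside 5.17%), 11 of which also had a nuclear term, and the plasma membrane for 18 (9.05%, beside 6.62%), 9 of which also had the cytoplasm. Plasmodesma, the channel between cells of land plants, was listed with cytoplasm for 7 members out of 10 sequences in the table. Organelles with their own genomes were rarely named. Chloroplast terms were listed for 2 members (1.01%, beside 10.8% of all), comp58474_c0_seq1_29 and comp65446_c1_seq1_15, the latter for the thylakoid membrane. Mitochondrial terms were also listed for 2 members (1.01%, beside 11.3%), the TOR sequences with the most terms, and both named the outer membrane. The endoplasmic reticulum or Golgi was listed for 10 members (5.03%, beside 5.39%), including comp1876372_c0_seq1_3 with the unfolded protein response and an endoribonuclease activity. Only comp1056067_c0_seq1_5 listed the cilium.

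**Figure D3:**
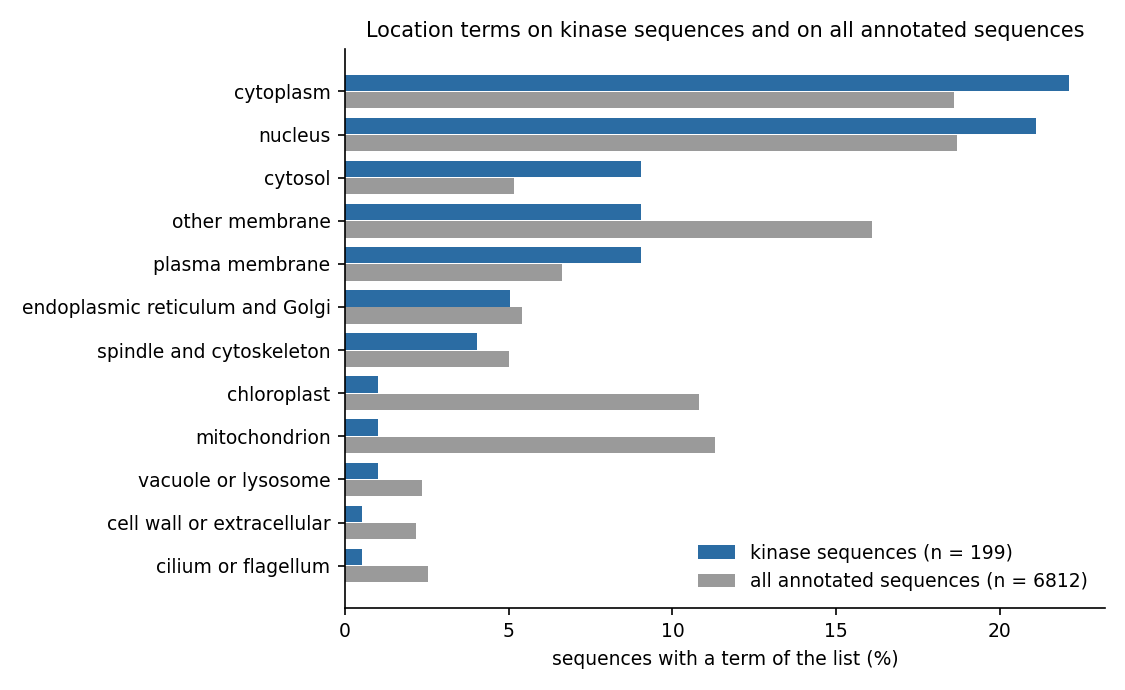
Horizontal bars give the percentage of the 199 kinase sequences (blue) and of all 6812 annotated sequences (grey) with a location term of each word list. Any location was listed for 55.3% of the kinase sequences and 83.6% of all annotated sequences. Cytoplasm (22.1%) and nucleus (21.1%) are the longest blue bars, and the chloroplast and mitochondrion lists are at 1.01% each for the kinases beside 10.8% and 11.3% of all sequences.

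**Figure D4:**
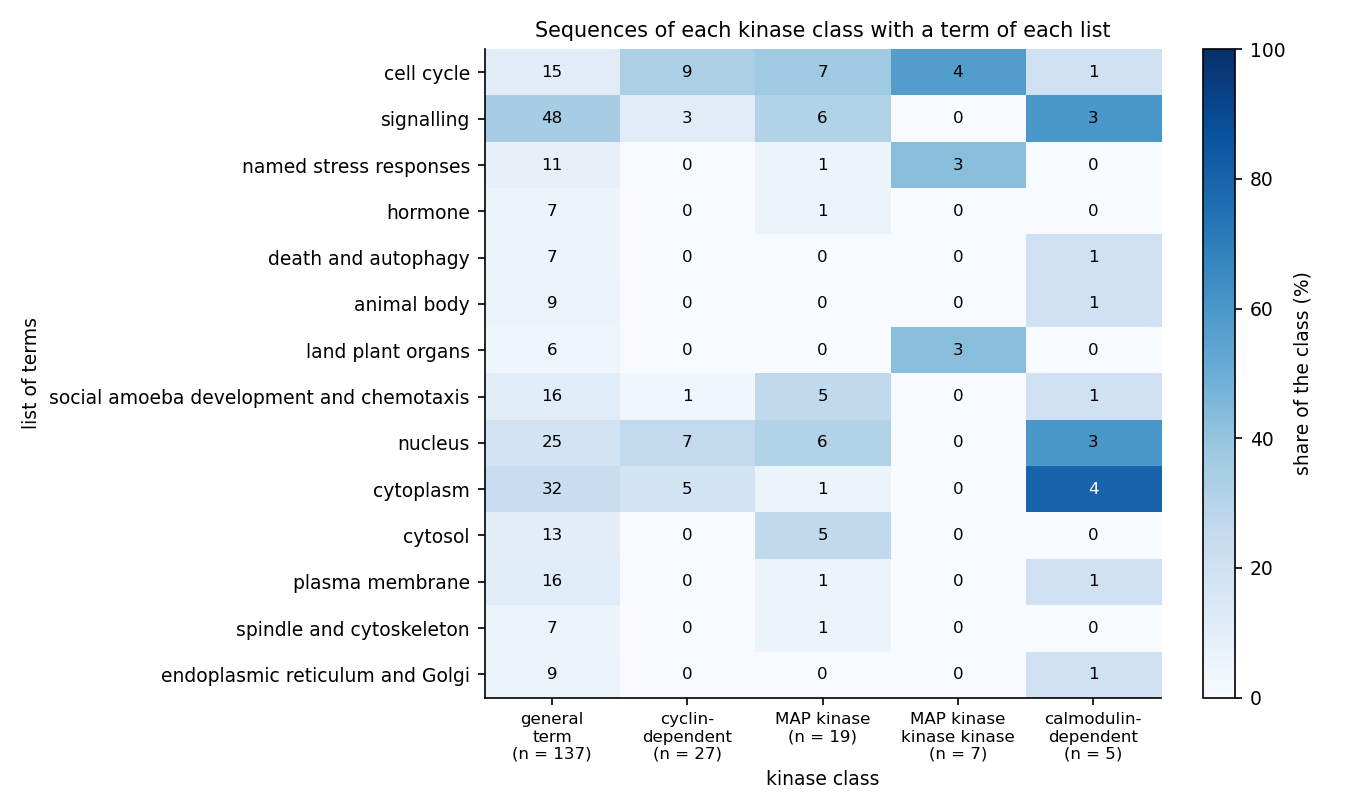
Each cell gives the number of sequences of a kinase class (columns, class size as n) with a term of a list (rows), and its shade the share of the class in percent, from 0 to 100. Signalling has the highest count of the general class (48), the 5 calmodulin-dependent sequences lie in the nucleus and cytoplasm rows with 3 and 4, and the MAP kinase kinase kinase column is empty in every location row.

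Other molecular functions were listed for a part of the members. Protein binding was listed for 51 (25.6%, beside 15.6% of all annotated sequences). Terms for the binding of metal ions, with calcium ion binding left out, were listed for 24 (12.1%, beside 18.8%), all 24 in the general class. Protein tyrosine kinase activity was listed together with the general term for 12 members, out of 13 sequences in the table with that term. A member with both is annotated for either target residue. The 3 sequences of comp64461_c1 listed an inhibitor term beside the kinase term, namely protein serine/threonine kinase inhibitor activity, with potassium channel inhibitor activity and ion transport. The sequence comp64527_c2_seq1_14 listed protein serine/threonine phosphatase activity and a regulator term of the cAMP-dependent kinase as well as the kinase term. Both sequences of comp64496_c1 listed Ras guanyl-nucleotide exchange factor activity, GTP binding and cGMP binding.

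Among the wider set of phosphorylation signalling, terms for serine/threonine phosphatases were listed for 64 sequences, of which 1 was a kinase member, and terms for tyrosine phosphatases for 6, of which 0 were. Calmodulin terms were listed for 39 sequences, 6 of them members. Phosphorelay terms, which belong to the signalling type with sensor kinases, were listed for 11 sequences, and the 2 members among them were the blue light receptor sequences. The rule does not take in every protein kinase of the table. Protein amino acid phosphorylation was listed for 28 sequences that are not members, including 6 with cAMP-dependent protein kinase activity, 4 with cGMP-dependent protein kinase activity and 3 with protein kinase activity. A further 23 sequences in the table listed kinase activity with no stated target, and 0 of them were members.

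The members did not all come from separate Trinity components. Of the 174 components, 156 held 1 kinase sequence, 11 held 2 and 7 held 3, and no component with a kinase sequence held an annotated sequence outside the set. The components with 3 were comp55864_c0 and comp57149_c0 (cyclin-dependent), comp64559_c0 and comp65534_c0 (MAP kinase kinase kinase), and comp61434_c0, comp64398_c0 and comp64461_c1 (general term). In 15 of the 18 components with several members, these carried the same set of terms. The other 3 were comp64559_c0, comp58642_c0 and comp58976_c0, all described above with the terms of their sequences. Members of 1 component can be variants of a single gene, and the table does not say whether they are.

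By component number, the kinases fell into a low range and a high range, with none between 65819 and 140936, and the ranges were separated at 100000. Above it were 92 members (46.2%) in 92 components and below it 107 in 82 components, while 50.3% of all annotated sequences lay above. Some groups of terms were unevenly divided, and others were close to even. All 7 MAP kinase kinase kinases, from 3 components, and all 8 members with a hormone term were below, as were 13 of 15 with a named stress. All 9 members with a Wnt term were above, as were 9 of 11 with animal body terms, 8 of 9 with death and autophagy terms and 4 of 5 calmodulin-dependent kinases. MAP kinases were divided 9 above to 10 below, and members with the general term 67 to 70. Cell cycle terms were divided 16 to 21, and chemotaxis or sorocarp terms 12 to 11. The nucleus list was divided 18 to 24 and the cytoplasm list 24 to 20. The shares of all annotated sequences above the boundary, term by term, are not given here. The source of this division was not tested.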

How the data were processed

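The study sequenced 7 libraries, and the authors assembled quality-filtered paired-end reads with Trinity. Reading frames came from GetORF, Blastp compared them with known proteins, and GoPipe turned the matches into GO terms. The deposited table is text (39529 lines of identifier, GO identifier, term name and domain letter), so its unit is other than a count or signal, and 0 columns hold values per sample.

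Members were found by the 4 phrases in the term names, case-insensitive. Classes were read from the matched terms, and processes, locations and functions from word lists. Members and lists were chosen with earlier results of these data known. The lists for TOR, Wnt, social amoeba and wider stress terms, and for kinases outside the rule, were added after seeing the term names. Named sequences are up to 12 per named class, the 5 with the most terms and components with at least 3 members. Other sequences were named after their terms were seen. The 30548 genes of the RefSeq table for assembly ASM3014472v1 matched 0 member identifiers, so no gene names or protein sequences are given. Counting functions were tested on simulated data. A count was taken as unmoved within 1.5 times. Python 3.11.15, pandas 2.3.3, NumPy 2.4.6 and Matplotlib 3.10.9 were used.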

Additional observations from a re-analysis of the deposited data

How the results depend on the processing

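Of 324 values under the alternatives set in advance, 257 stayed within 1.5 times the reported count and 67 moved. The counts have no direction and cannot reverse. Keeping only component numbers up to 100000 moved 46 values, since it leaves out 92 members. It gave 107 kinase sequences, 37 in the classes outside the general term (62 reported), 64 with a process other than phosphorylation (130 reported), 57 with a location (110 reported), 58 with a further function (112 reported) and 80 sequences in the related lists (167 reported). Taking in only the exact general term left 137 sequences and by construction 0 in the other classes. The number of members was 174 per Trinity component, 197 with molecular function terms only, 219 with the wider rule for protein kinase terms and 196 without sequences of 20 or more terms. Without those sequences, cytoskeleton terms moved from 4 to 2 members, mitochondrial terms from 2 to 0, extracellular terms from 1 to 0 and sequences with phosphoprotein binding from 3 to 1. With function terms only, regulators moved from 3 to 1 and ubiquitin functions from 1 to 0, and the wider rule gave 3 of the latter. With 1 count per component, the only value to move was that of the MAP kinase kinase kinases, from 7 to 3. Members with high component numbers were 92 also with the boundary at 70000. The wider stress list, added after seeing the data, gave 27 members in place of 15. No paired analysis was possible because the table holds no values per sample. The table carries no read depth, so the part played by depth in which kinases were assembled was not tested.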
